A study of Mus musculus with 2 samples.

Results

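The cells described here were E12.0 mouse mandibular epithelial cells with transcripts of the connexin genes Gjb2 and Gjb6, a population labelled as the ventral part of the aboral epithelium, the epithelium in front of the forming teeth. A cell was a member when it held at least 3 UMIs of Gjb2 plus Gjb6 and at most 2 UMIs of the periderm genes Ppl, Pkp1, Grhl3 and Nebl. A UMI is 1 counted transcript molecule. Of 11355 E12.0 cells with 200 to 5500 genes and at most 10% mitochondrial UMIs, 1179 met the rule, which is 10.4% (exact binomial interval 9.83% to 11.0%). These are called Gjb2/Gjb6 cells below. They were compared with the other 10176 kept cells, and with 2640 cells that held at least 3 UMIs of the aboral marker Cxcl14 and none of Gjb2 or Gjb6.

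The study asked which epithelial populations make up the developing mandible. Its E12.0 library came from 6 pooled K14Cre;R26mT/mG embryos of 1 litter, with no treatment, whose epithelium was peeled from the mesenchyme and sorted for GFP. K14Cre expresses Cre recombinase from a keratin promoter, and the reporter switches from a red to a green membrane protein where Cre has acted, so the sort could collect epithelium in which Cre had acted, periderm included. Its other library, from 8 pooled E9.5 embryos of the same alleles, held whole mandibular arches that were not sorted, so stage, dissection and sort differed together.

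The E12.0 counts summed to 78911671 UMIs over 11663 barcodes. The Gjb2/Gjb6 cells held 8949139 UMIs, with a median of 6875 per cell against 6293 in the other cells and 6298 in the Cxcl14 comparison cells. With 1 E12.0 library there were no replicates, so groups were compared by size alone and no p-value is given. Levels are given as CPM, a gene's UMIs in all cells of a group per 1000000 UMIs of that group, with exact 95% Poisson intervals in brackets, and folds carry the exact 95% interval of the ratio of both counts. These intervals cover counting error only and say nothing of the spread between embryos.

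Several library properties differed between the groups. Scrublet, which scores cells against simulated mixtures of cells, called 9.75% of the Gjb2/Gjb6 cells doublets, 5.37% of the other cells and 7.80% of the Cxcl14 comparison cells. The median mitochondrial share was 6.0%, 5.44% and 5.57% in the same order. Cells with Xist and no Y-linked UMI, which come from female embryos, made up 21.5% of the Gjb2/Gjb6 cells and 33.3% of the other cells, while cells with a Y-linked UMI and no Xist made up 52.4% and 41.7%. The E12.0 and E9.5 libraries shared 51 barcodes, of which 3 were Gjb2/Gjb6 cells. The part of these properties in the results was not tested, beyond the values given with doublets left out, within each sex and at a lower mitochondrial limit.

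Connexins are membrane proteins that assemble into gap junctions, channels through which ions and small molecules pass between neighbouring cells. Gjb2 and Gjb6 encode a pair of beta-type connexins that are best known from the inner ear and the epidermis, where human mutations in them cause deafness and skin disease. The aboral epithelium of the mandible is the surface ectoderm that does not form teeth, and it continues onto the outer side of the jaw that becomes facial skin. Cxcl14, a chemokine, and Tfap2b, an AP-2 transcription factor, mark this epithelium in the study.

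The connexin genes sit side by side. In GRCm38, Gjb2 (ENSMUSG00000046352) spans chr14:57098600-57104702 and Gjb6 (ENSMUSG00000040055) spans chr14:57123303-57133611, both on the minus strand with 18600 bases between them. The alpha-type connexin gene Gja3 lies 40499 bases from Gjb2 on its other side and was at 3.69 CPM in the Gjb2/Gjb6 cells. The 250 bases before the annotated start of each gene are printed below, since both genes chose the cells. They are from RefSeq (GRCm38.p6, minus strand, chr14:57104703-57104952 and chr14:57133612-57133861), written 5′ to 3′ in lower case.
Gjb2: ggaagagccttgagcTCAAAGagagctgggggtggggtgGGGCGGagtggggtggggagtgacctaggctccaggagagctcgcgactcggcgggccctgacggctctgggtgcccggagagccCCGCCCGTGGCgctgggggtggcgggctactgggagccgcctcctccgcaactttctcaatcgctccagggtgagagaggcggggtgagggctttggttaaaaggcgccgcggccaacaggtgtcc
Gjb6: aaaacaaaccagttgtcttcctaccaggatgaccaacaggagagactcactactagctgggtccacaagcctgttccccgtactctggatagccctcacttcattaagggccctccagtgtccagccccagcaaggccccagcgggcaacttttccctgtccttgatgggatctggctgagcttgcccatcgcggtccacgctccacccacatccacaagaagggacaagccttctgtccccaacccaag
Capitals mark matches, on either strand, to 4 motifs that were searched for: the AP-2 core GCCNNNGGC, the LEF/TCF core CTTTGA, the GC box GGGCGG and the TATA box TATAAA. The Gjb2 stretch held 1 AP-2 match, 1 LEF/TCF match and 2 GC boxes, and the second GC box, read on the other strand, overlapped the AP-2 match in the longer run of capitals. The Gjb6 stretch held none of the 4 motifs. Of 32851 RefSeq promoter windows of this length, 13.7% held the AP-2 core, 13.8% the LEF/TCF core, 32.7% a GC box and 12.4% the TATA box. The G and C content was 69.2% before Gjb2 and 56.8% before Gjb6, against a median of 52.4% over all windows. A match is a description of letters only.

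Both connexins were usually present in a member. UMIs of both were found in 898 of the 1179 cells, of Gjb2 alone in 233 and of Gjb6 alone in 48. The sum of the 2 genes had a median of 4 and a maximum of 20, and 83.4% of the other kept cells had no UMI of either gene. Gjb2 stood at 438 CPM (425 to 452) in the Gjb2/Gjb6 cells and 22.2 (21.1 to 23.3) in the other cells, and Gjb6 at 231 (221 to 241) and 12.0 (11.2 to 12.9), which is what the rule selected. A further 23 cells met the connexin limit and exceeded the periderm limit.

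**Figure D1:**
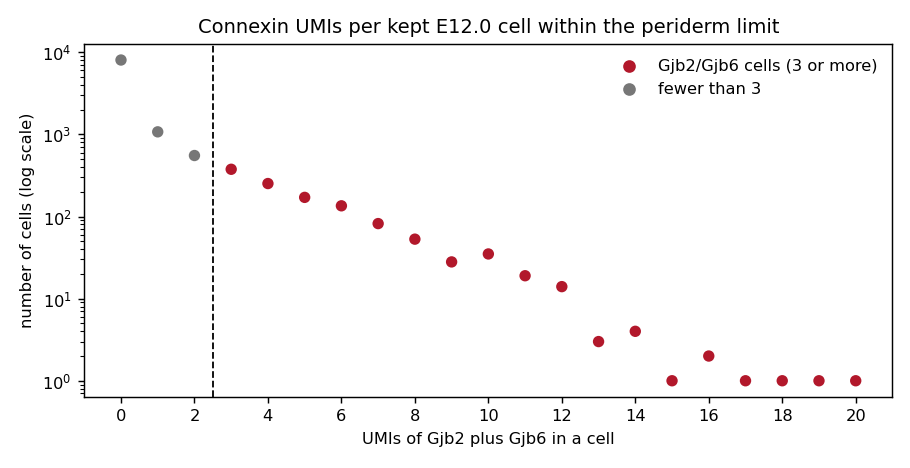
Number of kept E12.0 cells within the periderm limit (log scale) at each count of Gjb2 plus Gjb6 UMIs. Red points are the Gjb2/Gjb6 cells, grey points the cells below the limit of 3, which is drawn as a dashed line; the counts fall from 8046 cells at 0 to 553 at 2, 376 at 3 and 1 at 20 without a gap at the limit.

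The limit of 3 UMIs cut a continuous range. Just outside it, the 553 cells with 2 UMIs had Lmx1b at 41.2 CPM, Lgr6 at 50.5, Dcn at 69.6 and Skap2 at 29.4. The 376 cells with 3 UMIs had these genes at 46.7, 52.4, 86.5 and 37.0 CPM. Cxcl14 was at 1898 and 1942 CPM in the same cells, so those just outside the limit resembled those just inside it.

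Each connexin was also read in cells chosen by the other alone, among kept cells within the periderm limit. In the 721 cells with at least 3 UMIs of Gjb2, whatever their Gjb6 count, Gjb6 was at 186 CPM (175 to 197), against 12.5 (11.6 to 13.5) in the 8552 such cells without Gjb2. In the 687 cells with at least 2 UMIs of Gjb6, Gjb2 was at 347 CPM (332 to 364), against 34.7 (33.3 to 36.2) in the 9224 cells without Gjb6. Median depths were 7094 and 6255 UMIs in the first pair and 6867 and 6298.5 in the second. The 2 neighbouring genes thus marked overlapping sets of cells.

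The remaining markers given for the label are described next. They were chosen with earlier results of these data known, so their direction is no check of the label. Lmx1b (chr2:33560965-33640511), a LIM-homeodomain factor that patterns limb and eye, was at 53.2 CPM (48.5 to 58.2) in the Gjb2/Gjb6 cells, 9.31 (8.60 to 10.1) in the other cells and 11.8 (10.3 to 13.5) in the Cxcl14 comparison cells. Lgr6 (chr1:134983301-135105276), an R-spondin receptor found on skin stem cells, was at 58.1, 16.6 and 18.6 CPM, and Dcn (chr10:97479609-97518143), the secreted proteoglycan decorin, at 93.5, 18.4 and 18.2 CPM. All 3 were higher in the Gjb2/Gjb6 cells than in both groups. Cxcl14 had at least 1 UMI in 97.0% of the Gjb2/Gjb6 cells and at least 3 in 94.8%, against 39.2% with at least 3 in the other cells, and Tfap2b was found in 98.2% against 46.2%. Cxcl14 and Tfap2b therefore placed the cells in the aboral epithelium as the study defines it. Whether they were ventral could not be read from dissociated cells. The study uses Gjb6 to mark a ventral cluster and Gjb2 a lateral one of the anterior epithelium, so the rule can join cells of more than 1 of its clusters.

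Because deeper cells show a UMI more often, shares were repeated on cells thinned to 4000 UMIs each, without 42 Gjb2/Gjb6 cells and 874 others. Lmx1b was then found in 18.1% of the Gjb2/Gjb6 cells and 3.47% of the others, compared with 30.7% and 5.48% without thinning. For Dcn the thinned shares were 28.5% and 5.98% (41.3% and 8.81% without thinning), and for Lgr6 19.5% and 5.90% (31.4% and 8.93%). For comparison, cells of the dental epithelium, defined below, had Lmx1b in 0.794% of cells at a median of 7850 UMIs, or 0.601% after thinning. Dcn was found in 5.11% and Lgr6 in 3.40% of the thinned dental cells, against 5.6% and 6.74% of the thinned Cxcl14 comparison cells. For Dcn the share in the Cxcl14 comparison cells was thus near that of the dental cells. Without thinning, Dcn was at 13.0 CPM in the dental and 5.19 in the posterior group, also defined below. Free RNA was not measured, and its part in the dental share of Dcn was not tested. None of the 3 markers was found in all members at this depth.

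Against all other kept cells, a gene was called where its CPM was at least 1.3 times that of the other group and at least 15% of the higher group's cells held a UMI, sizes taken from the criteria for markers in the study. Of 6482 genes with a UMI in 15% of either group, 338 were called higher in the Gjb2/Gjb6 cells (5.21%) and 322 lower (4.97%). Gjb2 and Gjb6 themselves are among the 338. The median log2 fold over all tested genes was -0.010.

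The largest fold among genes outside the rule belonged to Skap2 (chr6:51857422-52012549), an adaptor protein of Src kinase signalling. Skap2 was at 60.9 CPM (55.9 to 66.2) in the Gjb2/Gjb6 cells and 7.22 (6.60 to 7.88) in the other cells, which is a log2 fold of 3.08 (2.90 to 3.25). It was followed by Pou3f1 (chr4:124656807-124660655), a POU-domain factor known from the epidermis, at 39.4 (35.4 to 43.8) against 4.93 CPM (4.42 to 5.48), with a log2 fold only slightly smaller. Both genes were higher than Lmx1b by this measure, whose log2 fold was 2.51 (2.34 to 2.69).

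Among the remaining genes of the 15 with the largest folds, Pcdh9, a protocadherin, was at 30.1 against 5.89 CPM, the inward-rectifier potassium channel gene Kcnj2 at 25.6 against 5.07, and the rhomboid-family gene Rhbdl3 at 50.5 against 10.7. Robo2, a receptor for Slit guidance proteins, was the most abundant of them at 258 CPM (247 to 268) against 59.8 (58.0 to 61.6). Slc2a3, a glucose transporter gene, stood at 169 against 48.6 CPM, and Fzd10, a Frizzled receptor for WNT proteins, at 158 against 44.7. Secreted factors in the list were Edn3, an endothelin that acts on pigment cell precursors (22.6 against 5.78 CPM), and Nbl1, a BMP antagonist of the DAN family (63.7 against 17.9 CPM). Tmem132c (22.7 against 5.23 CPM), the Iroquois homeobox gene Irx4 (57.2 against 14.97), Dcn and Lgr6 completed the list.

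Lower genes included factors of the other mandibular regions. The desmosomal cadherin gene Dsc3 was at 11.1 CPM (8.99 to 13.5) in the Gjb2/Gjb6 cells and 105 (103 to 108) in the other cells, which is a log2 fold of -3.25 (-3.55 to -2.96). The netrin receptor gene Unc5c was at 5.36 against 38.3 CPM, Nkx2-3, a homeobox gene of the oral epithelium, at 17.3 against 117, and Fgf9 at 10.3 against 64.3. Sox2, Irx1, Barx1, Isl1, Epha7 and Palld made up the rest of the 10 with the largest folds, with log2 folds between -2.20 and -2.77. Without the cells called doublets, the log2 folds of Dsc3, Unc5c, Nkx2-3 and Isl1 went to -4.66, -4.45, -3.78 and -2.96. The size of these 4 differences therefore depended on whether such cells were kept, and their direction did not.

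To compare them within the aboral epithelium, the cells were set beside the 2640 Cxcl14 cells without connexin UMIs, which are also among the 10176 other cells of the first comparison. Here 277 of 6494 tested genes were called higher (4.27%) and 304 lower (4.68%), with a median log2 fold of 0.00 over all tested genes. Of the genes called higher in either comparison, 225 were called in both, and of those called lower 200. Gjb2 and Gjb6 are again among the higher genes, and the comparison cells hold none of their UMIs by rule.

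Both comparisons share the Gjb2/Gjb6 cells, so their values are given side by side. Skap2 was at 6.06 CPM (4.99 to 7.29) in the Cxcl14 comparison cells, a log2 fold of 3.33 (3.03 to 3.63), Pou3f1 at 5.47 (2.85, 2.53 to 3.18), and Dcn at 18.2 (2.36, 2.17 to 2.54). Lmx1b, Rhbdl3, Kcnj2, Edn3, Nbl1, Pcdh9, Slc2a3, Tmem132c, Lgr6 and Robo2 followed with log2 folds between 2.17 and 1.54. The receptor phosphatase gene Ptpre, at 38.3 against 14.3 CPM, and the mucin-type glycosyltransferase gene Galnt18, at 36.9 against 14.1, entered the first 15 in this comparison only, while both were also called higher against all other cells.

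Among the lower genes, Unc5c, Dsc3, Nkx2-3, Isl1, Palld and Fgf9 were lower than in the Cxcl14 comparison cells as well, with log2 folds between -2.89 and -2.43. Without the cells called doublets, the log2 folds of Unc5c, Dsc3, Nkx2-3 and Isl1 in this comparison were -4.51, -4.12, -3.77 and -3.29. Ephb1, an Eph receptor gene, stood at 5.48 against 39.0 CPM, Enpp1, an ectonucleotidase gene, at 3.69 against 25.6, the contactin gene Cntn2 at 4.13 against 28.5, and the copine gene Cpne5 at 7.04 against 41.6. Sox2, Irx1, Epha7 and Barx1 were not tested in this comparison, since under 15% of either group held them, and had log2 folds of -0.31, -0.68, -0.77 and 0.33.

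**Figure D2:**
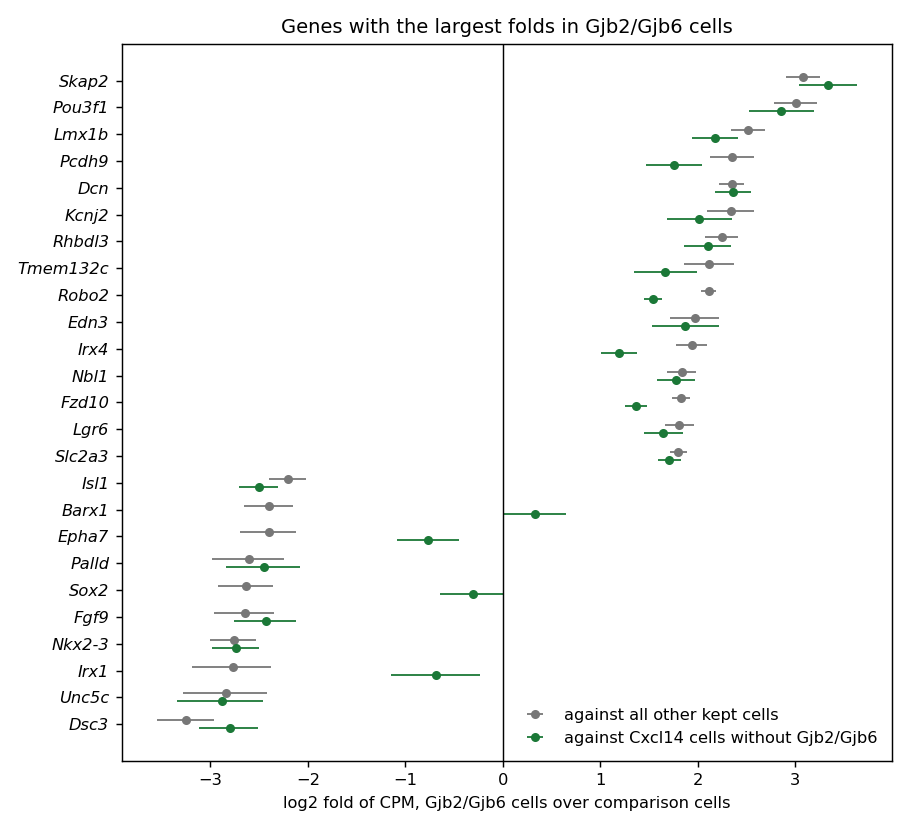
Log2 fold of CPM (horizontal axis) for the 15 genes with the largest higher and the 10 with the largest lower fold in the Gjb2/Gjb6 cells against all other kept cells. Grey points are folds against all other kept cells and green points against Cxcl14 cells without Gjb2/Gjb6, bars are exact 95% intervals; Skap2 stands at 3.08 and 3.33, and Barx1, Sox2, Irx1 and Epha7 lie closer to 0 in the second comparison.

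Transcription factors of the aboral epithelium did not all go the same way. Of 22 listed, 16 were tested against all other cells, with 8 called higher and 3 lower (10.2% of all tested genes were called in either direction), and against the Cxcl14 comparison cells 7 of 16 were called higher and 7 lower (8.95% of all tested genes). The medians of the tested members were 0.48 and 0.26 on the log2 scale. The AP-2 genes Tfap2a, Tfap2b and Tfap2c were all called higher than in the other cells.

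Tfap2b was the most abundant factor of the list, at 1048 CPM in the Gjb2/Gjb6 cells, 581 in the Cxcl14 comparison cells and 341 in the rest, with a log2 fold of 0.85 (0.81 to 0.89) within the aboral epithelium. Lmo1, a LIM-only cofactor, was at 312 against 213 CPM in the Cxcl14 comparison cells, and Lef1, which mediates WNT signalling at its target genes, at 269 (259 to 280) against 144 (139 to 150). Tfap2a, Gata3, a zinc-finger factor of skin and ear, and Trps1, a GATA-type repressor of hair development, were also called higher in both comparisons, with log2 folds of 0.43 to 0.44 against the Cxcl14 comparison cells.

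A second group of homeobox factors went the other way within the aboral epithelium. Msx1 was at 143 CPM (135 to 151) in the Gjb2/Gjb6 cells and 301 (293 to 309) in the Cxcl14 comparison cells, a log2 fold of -1.07, and Msx2 at 76.9 against 159 CPM. Otx1 (63.1 against 124 CPM), Dlx2 (99.5 against 214) and Dlx3 (108 against 170) were lower in the same comparison. Against all other cells Msx1, Msx2, Otx1 and Dlx3 were within 0.1 of 0 on the log2 scale. Dlx1, a gene chosen after its values were seen, had a larger fold than any of these, at 31.5 against 149 CPM (log2 fold -2.24). Runx1, a runt-domain factor, was lower than in both groups, at 40.5 CPM against 184 in the Cxcl14 comparison cells and 154 in all other cells.

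Iroquois homeobox genes were looked at after Irx4 had entered the list of largest folds. Besides Irx4, Irx3 was at 127 CPM in the Gjb2/Gjb6 cells, 76.8 in the Cxcl14 comparison cells and 53.9 in all other cells, and Irx5 at 127, 91.9 and 67.1. Irx1, which marks the dental epithelium, was at 6.03, 9.69 and 41.1 CPM. Irx2, another dental marker of the study, was at 24.9 CPM against 9.91 in the Cxcl14 comparison cells. It was not tested there, since under 15% of either group held it. Irx3, Irx4 and Irx5 were thus called higher in both comparisons, and Irx1 was called lower than in all other cells and was not tested against the Cxcl14 comparison cells. The long noncoding gene C130021I20Rik, 681 bases from Lmx1b on the opposite strand, followed its neighbour at 57.1, 11.6 and 9.91 CPM.

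WNT proteins are secreted signals that stabilise beta-catenin or act on cell polarity through Frizzled and related receptors. Of 19 ligand genes, 7 were tested against all other cells, with 5 called higher and 1 lower (median log2 fold 0.66), where 5.21% of all tested genes were called higher and 4.97% lower. Against the Cxcl14 comparison cells 1 of 7 was called higher and 2 lower (median -0.05), where the shares over all tested genes were 4.27% and 4.68%. The counts of the lists that follow stand beside these same shares. Wnt3, Wnt7b, Wnt9b and Wnt10a were called higher than in all other cells, and their levels within the aboral epithelium differed by 0.21 or less on the log2 scale. Wnt6 was higher in both comparisons, at 439 CPM (425 to 453) against 332 (323 to 340) in the Cxcl14 comparison cells and 242 in all other cells.

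Wnt5a and Wnt4 were lower within the aboral epithelium. Wnt5a, a ligand that mostly acts without beta-catenin, was at 55.5 CPM (50.8 to 60.6) in the Gjb2/Gjb6 cells, 208 (202 to 215) in the Cxcl14 comparison cells and 107 in all other cells. Wnt4 was the most abundant ligand gene in the Gjb2/Gjb6 cells at 631 CPM, equal to its level in all other cells and below the 1046 CPM of the Cxcl14 comparison cells. Wnt10b was found in 9.92% of the Gjb2/Gjb6 cells and so was not tested, at 14.0 CPM (11.6 to 16.6) against 4.22 and 4.02.

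Receptors and feedback genes of the pathway were partly higher. Of 11 tested WNT and R-spondin receptor genes, 3 were called higher and 1 lower than in all other cells, and 4 higher and 2 lower than in the Cxcl14 comparison cells. Fzd10 was at 61.5 CPM in the Cxcl14 comparison cells, less than the 158 CPM of the Gjb2/Gjb6 cells, and the WNT-binding receptor Ryk was at 384 CPM against 224. Fzd1 had the opposite direction, at 20.1 against 73.3 CPM (log2 fold -1.87). Lgr4, a relative of Lgr6, was called higher within the aboral epithelium only, at 102 against 69.0 CPM, and Lgr5 was at 2.79 CPM, and was not tested in either comparison.

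Axin2 and Znrf3, which are induced by and restrain WNT signalling, and the Dickkopf co-receptor gene Kremen2 were called higher in both comparisons. Axin2 was at 76.3 CPM (70.7 to 82.3), against 41.1 (38.2 to 44.1) in the Cxcl14 comparison cells and 37.8 in all other cells. Znrf3 stood at 151, 96.7 and 71.1 CPM in the same order and Kremen2 at 171, 97.7 and 81.3. Of the list of 23 inhibitors and response genes, 10 were tested against all other cells, with 5 called higher and 1 lower, and 9 against the Cxcl14 comparison cells, with 5 higher and 1 lower. The other genes called higher in both were Rnf43 and Lef1, and the lower ones were Sfrp2 against all other cells and Sostdc1 against the Cxcl14 comparison cells. At a 5% limit on mitochondrial UMIs, the Rnf43 fold against the Cxcl14 comparison cells was -0.015 instead of 0.43.

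Genes of the BMP pathway went in both directions. Against all other cells 4 of 13 tested genes were called higher (Bmp7, Id1, Htra1 and Nbl1) and 4 lower (Id4, Nog, Bambi and Fst), and against the Cxcl14 comparison cells 3 of 12 were higher and 3 lower. Bmp7, a ligand gene, was at 103 CPM against 63.5 in the Cxcl14 comparison cells. Bambi, a decoy receptor gene, was at 35.2 CPM (31.4 to 39.3) against 133 (128 to 138), and the antagonist gene Nog at 30.2 against 57.6. The antagonists were thus split, with Nbl1 higher and Nog lower.

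Other signalling lists held fewer calls within the aboral epithelium and also fewer tested genes, and the shares called were not compared. Of the FGF genes, the receptor gene Fgfr2 was called higher in both comparisons, at 453 CPM against 343 in the Cxcl14 comparison cells, and Fgf9 lower in both. The response genes Dusp6, Spry2 and Etv5 were called lower than in all other cells (18.5, 20.4 and 20.6 CPM against 42.7, 36.7 and 37.5) and against the Cxcl14 comparison cells Spry2 was not called and Dusp6 and Etv5 were not tested. In the retinoic acid list, 3 of 5 tested genes were lower than in all other cells and 2 of 4 than in the Cxcl14 comparison cells, led there by the binding protein gene Crabp1 at 33.1 against 109 CPM. The Notch ligand gene Jag1 was lower in both comparisons, at 24.6 CPM against 46.8 and 53.7. No EGF family gene was called within the aboral epithelium, and Erbb3 was called lower than in all other cells.

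Hedgehog genes were added after the values were seen. Ptch1, a receptor gene that Hedgehog signalling induces, was at 55.1 CPM (50.3 to 60.2) in the Gjb2/Gjb6 cells, 150 (144 to 155) in the Cxcl14 comparison cells and 124 in all other cells. Gli1, another target, was at 11.8, 36.6 and 32.9 CPM. Both were called lower in both comparisons. The signal transducers Smo, Gli2 and Gli3 were not called in either, and Shh was at 2.01 CPM against 21.2 and 21.9, in under 15% of any group.

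Junction genes were lower more often than higher. Of 20 connexin and pannexin genes besides the pair used by the rule, 2 were tested in each comparison and 8 had no UMI in the Gjb2/Gjb6 cells. Gja1, the most widely expressed connexin gene, was at 123 CPM (116 to 131) against 213 (207 to 220) in the Cxcl14 comparison cells and 204 in all other cells, and was called lower in both. Gjc1 was not called, at 112, 117 and 133 CPM.

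Of 10 tested desmosome and tight junction genes, 1 was called higher and 5 lower in each comparison (medians -0.38 and -0.37). The lower genes were the desmosomal genes Dsc3, Dsg2 and Dsp and the claudin genes Cldn6 and Cldn7. Dsp, which anchors keratin filaments at desmosomes, was at 597 CPM against 905 in the Cxcl14 comparison cells, Dsg2 at 69.8 against 130 and Cldn7 at 16.1 against 35.2. Cldn1, a claudin of the skin barrier, was the gene called higher, at 25.8 against 15.5 CPM. The rule limited periderm genes in the Gjb2/Gjb6 cells and not in the comparison cells. With the same limit on the Cxcl14 comparison cells, the log2 folds were -2.60 for Dsc3, -0.84 for Dsg2, -0.55 for Dsp, -0.51 for Cldn6, -1.01 for Cldn7 and 0.79 for Cldn1.

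Basement membrane and hemidesmosome genes showed a different mix. Of 21 tested, 5 were called higher and 3 lower than in all other cells, and 4 higher and 2 lower than in the Cxcl14 comparison cells (medians 0.12 in both). The hemidesmosomal collagen gene Col17a1 was at 164 CPM (155 to 172) against 93.8 (89.4 to 98.3), the laminin chain gene Lama3 at 67.7 against 39.7, the anchoring fibril collagen gene Col7a1 at 50.1 against 29.7 and Fras1 at 214 against 149. These 4 genes, all mutated in skin blistering or skin adhesion disorders, were called higher in both comparisons. Npnt, the matrix protein nephronectin, was lower at 259 against 638 CPM, and Frem2 at 166 against 274.

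Of 7 keratin genes tested against all other cells, 2 were called higher and 2 lower, and of 6 tested against the Cxcl14 comparison cells, 1 was called higher and 1 lower. Krt14 was at 815 CPM in the Gjb2/Gjb6 cells, 746 in the Cxcl14 comparison cells and 662 in all other cells, and Krt5 at 682, 640 and 477, of which the last difference was called. The simple-epithelium keratin gene Krt8 was at 15.8 CPM, near the 13.2 of the Cxcl14 comparison cells and below the 52.7 of all other cells, and Krt18 was lower in both comparisons. As for the junction genes, the periderm limit held for the Gjb2/Gjb6 cells and not for the comparison cells. Krt7, another keratin gene of simple epithelia, was called higher in both, at 44.0 CPM against 30.4 in the Cxcl14 comparison cells and 25.4 in all other cells. Of 14 small leucine-rich proteoglycan genes, Dcn and Fmod were the only ones tested, and Fmod was called higher than in all other cells at 22.1 against 14.7 CPM.

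Guidance receptors and ligands split as well. Of 23 tested against all other cells, 7 were called higher and 4 lower, and of 24 tested against the Cxcl14 comparison cells, 4 higher and 6 lower. Robo2 and the secreted semaphorin gene Sema3a were called higher in both, Sema3a at 363 CPM (351 to 376) against 231 (224 to 238) and 169 (166 to 172). Robo1, a receptor gene related to Robo2, was called lower in both, at 29.6 CPM against 44.6 and 42.1. Epha4, the most abundant Eph receptor gene of the list in the comparison cells, was at 105 CPM against 268 and 273.

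To place these levels along the oral-aboral axis, a dental group of 1007 cells (at least 4 UMIs summed over dental marker genes, Irx1 among them, and at most 1 of Cxcl14) and a posterior group of 380 cells (at least 2 UMIs of Col14a1 plus Rtl3 and at most 1 of Cxcl14) were taken without any Gjb2/Gjb6 cell, and 12 cells that met both rules were left out. Robo2 was at 258 CPM in the Gjb2/Gjb6 cells, 88.4 in the Cxcl14 comparison cells, 8.77 in the posterior and 3.6 in the dental group. Lmx1b was at 0.959 CPM in the dental and 1.3 in the posterior group, and Skap2 at 3.12 and 1.62. The Gjb2/Gjb6 cells thus lay above the Cxcl14 comparison cells, and these above both oral groups, for Lmx1b, Skap2, Pou3f1, Robo2 and Fzd10.

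Msx1 and Msx2 had their highest levels in the Cxcl14 comparison cells, not in the Gjb2/Gjb6 cells, with 55.9 and 20.4 CPM in the dental and 5.84 and 3.57 in the posterior group. Lef1 did not follow this order, since its dental level of 166 CPM exceeded the 144 of the Cxcl14 comparison cells. Isl1 was lower in the Gjb2/Gjb6 cells (25.7 CPM) than in each of the other groups, which had 146, 116 and 148 CPM, and so was Runx1 (40.5 CPM against 184, 114 and 155). Pitx1, a homeobox gene of the oral ectoderm, was lowest in the Gjb2/Gjb6 cells, with 73.1 CPM, 243 in the Cxcl14 comparison cells, 467 in the dental and 380 in the posterior group. Without the cells called doublets, the log2 folds against the Cxcl14 comparison cells were -3.29 for Isl1, -2.86 for Runx1 and -2.43 for Pitx1.

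**Figure D3:**
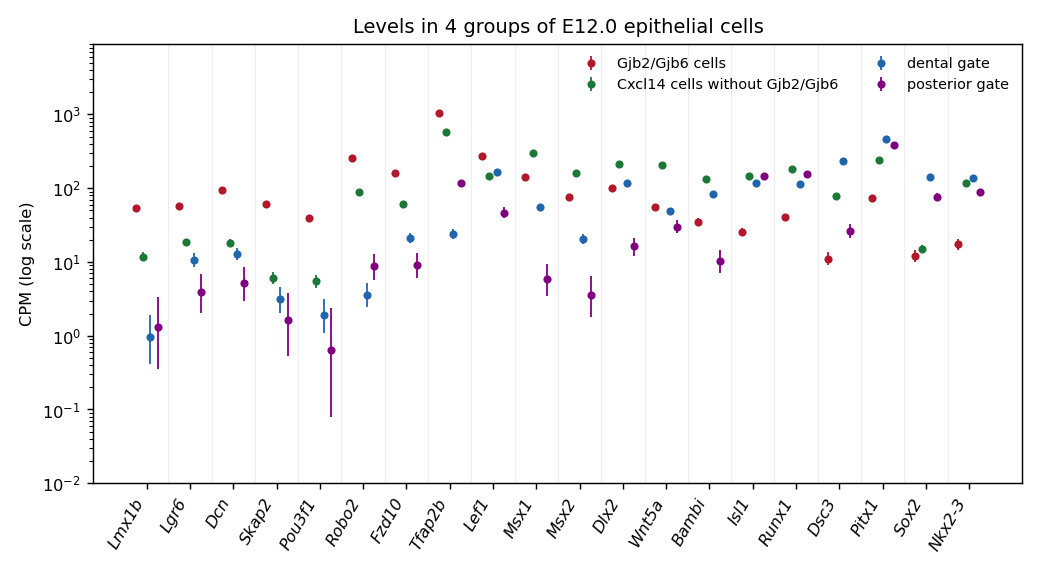
CPM (log scale) of 20 genes in the Gjb2/Gjb6 cells (red), Cxcl14 cells without Gjb2/Gjb6 (green), the dental gate (blue) and the posterior gate (purple), with exact 95% Poisson intervals as bars. Red points are highest from Lmx1b to Lef1, green points are highest for Msx1, Msx2, Dlx2, Wnt5a and Bambi, and for Isl1 and Runx1 the red points, at 25.7 and 40.5 CPM, are the lowest.

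Within the population, levels were followed over the number of connexin UMIs, which also rises with depth (median UMIs 6716, 7090 and 8528 in cells with 3 to 5, 6 to 9 and 10 or more). Skap2 went from 45.1 CPM in the 799 cells with 3 to 5 connexin UMIs to 84.3 in the 298 with 6 to 9 and 115 in the 82 with 10 or more, with intervals of 39.9 to 50.9, 72.8 to 97.0 and 92.0 to 143. Pou3f1 went from 32.8 to 51.3 and 56.3 CPM, and Slc2a3 from 151 to 203 and 210. Lmx1b (49.8, 59.96 and 59.0 CPM), Lgr6 (56.8, 59.5 and 64.5) and Dcn (93.6, 87.3 and 113) had overlapping intervals across the same bins. With each cell thinned to 4000 UMIs and the bins taken from the thinned counts, Skap2 was at 75.2 CPM (64.0 to 87.9) in 525 cells with 3 to 5 connexin UMIs and 115 (81.6 to 157) in 85 cells with 6 to 9. Pou3f1 (51.0 and 41.2 CPM) and Slc2a3 (206 and 188) did not rise between these thinned bins.

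Cells with 1 or 2 connexin UMIs, which the rule left out, lay in between. There were 1627 of them, with Skap2 at 19.3 CPM against 3.75 in the 8046 cells without a connexin UMI, Lmx1b at 29.7 against 5.14 and Dcn at 47.7 against 12.7. Dsc3 was lower in each bin, from 106 CPM in cells without a connexin UMI to 34.5 in those with 1 or 2 and 13.7 in those with 3 to 5. Msx1 and Wnt5a were different, at 137 and 108 CPM without a connexin UMI and 199 and 112 with 1 or 2. Wnt5a was lower from 3 UMIs on (62.2 CPM at 3 to 5), whereas Msx1 was at 151 CPM (141 to 161) at 3 to 5 UMIs. With cells thinned to 4000 UMIs, Msx1 was again higher with 1 or 2 connexin UMIs than with none (189 against 143 CPM) and not higher with 3 to 5 (140 CPM, 124 to 156), and Wnt5a with 1 or 2 was lower, at 97.5 CPM (89.7 to 106) against 110 (106 to 113).

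**Figure D4:**
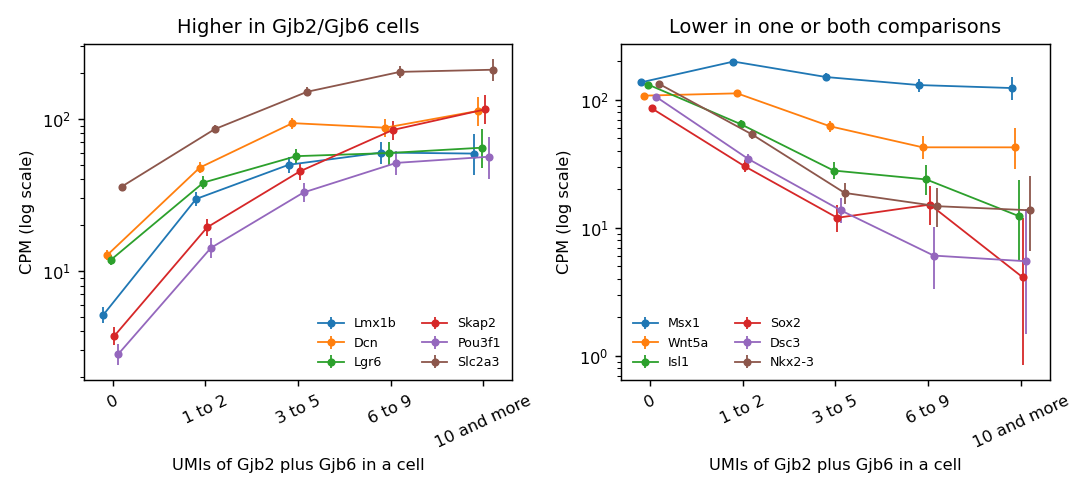
CPM (log scale) of 12 genes by the number of Gjb2 plus Gjb6 UMIs in a cell, for kept E12.0 cells within the periderm limit, with exact 95% Poisson intervals as bars. Left, genes higher in the Gjb2/Gjb6 cells climb up to 3 to 5 UMIs. Skap2 climbs further to 115 CPM, and so do Pou3f1 and Slc2a3, though not in cells thinned to 4000 UMIs. Right, Dsc3, Isl1, Sox2 and Nkx2-3 are lower at 1 to 2 UMIs than at 0, while Msx1 is higher there and Wnt5a is not lower. In cells thinned to 4000 UMIs Wnt5a is lower, at 97.5 against 110 CPM.

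A UMI of Gria2, a glutamate receptor gene, was present in 131 of the 1179 Gjb2/Gjb6 cells, and 12.2% of these 131 were called doublets. Gria2 was at 18.7 CPM (15.9 to 21.7) in the Gjb2/Gjb6 cells, against 6.06 and 4.90 in the comparison groups. The cells with Gria2 had Dcn at 140 CPM (118 to 165), against 87.6 (81.2 to 94.4) in members without it. Gjb2 (423 and 441 CPM), Cxcl14 (2219 and 2186) and Krt5 (695 and 680) differed by less than their intervals, and Gjb6 was at 264 against 227 CPM, a log2 fold of 0.22 (0.03 to 0.41). Lef1 (322 against 262 CPM), Robo2 (297 against 253) and Wnt4 (541 against 642) differed by less than 1.3 times. Of 6691 genes tested in this split, 392 were called higher and 376 lower, Dcn among the former. Among higher genes whose interval excluded equal levels, Usp28 (24.6 against 10.6 CPM) and Irx2 (50.1 against 21.7) had the largest folds. Gria2, rule, Xist, Y-linked, mitochondrial and unnamed genes were left out of this ranking. The sexes differed too, with a Y-linked UMI and no Xist in 61.1% of the cells with Gria2 and 52.4% of all Gjb2/Gjb6 cells. Xist and no Y-linked UMI were found in 13.7% and 21.5%. Gria2 marks another of the study's anterior clusters, and the split by it was one of 2 made within the population.

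The other split was by Lmx1b. The 362 cells with an Lmx1b UMI had Skap2 at 59.0 CPM and the 817 without one at 61.8, Pou3f1 at 43.1 and 37.7, and Lgr6 at 63.2 and 55.7, with overlapping intervals in each case. Dcn was at 104 CPM (92.8 to 117) and 88.4 (81.1 to 96.2), and Gjb2 at 413 and 451. The cells with Lmx1b were deeper, with a median of 7413 UMIs against 6710, and at this depth a cell without a UMI cannot be read as lacking the transcript.

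Female and male embryos are different animals, so folds within each sex came from separate parts of the litter. There were 254 female and 618 male Gjb2/Gjb6 cells, compared with 3391 and 4247 other cells of the same sex. Leaving out the rule genes and the Xist, Tsix and Y-linked genes, of the 334 genes called higher than in all other cells, 333 were higher in both sexes and 279 by at least 1.3 times in both, while 2136 of all 6474 tested genes were higher in both. Of the 320 called lower, all 320 were lower in both sexes and 237 by the same size, against 2530 of the tested genes. These calls were made on the pooled cells, which include both sexes, so the agreement is not independent of them.

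Skap2 had log2 folds of 3.42 in female and 2.90 in male cells, Pou3f1 3.05 and 2.99, and Dcn 2.67 and 2.34. Against the Cxcl14 comparison cells, 272 of 275 genes called higher and 299 of 302 called lower had the same direction in both sexes, and 208 and 217 of them reached 1.3 times in both. Of all 6486 genes tested in this comparison, 2112 were higher and 2250 lower in both sexes. How many of the 6 embryos were of each sex, and the spread between embryos of 1 sex, was not analysed here.

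**Figure D5:**
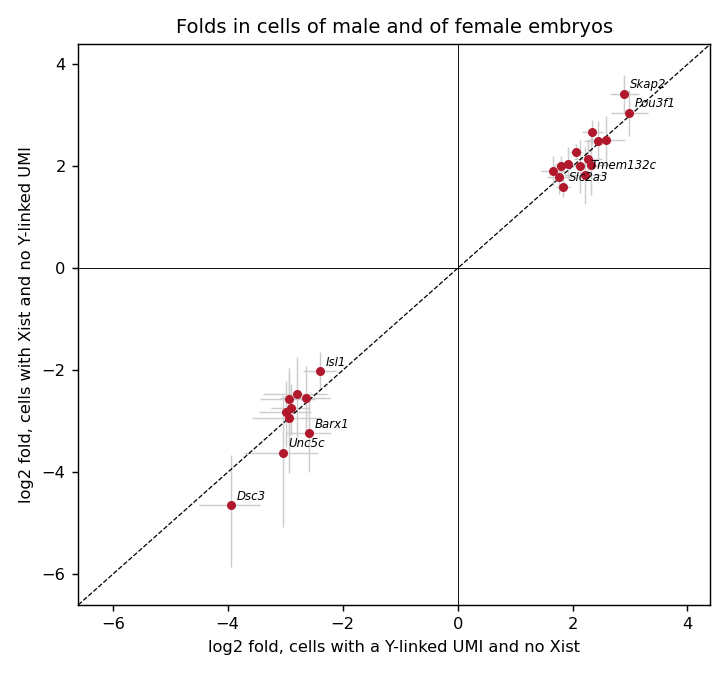
Log2 fold of CPM in Gjb2/Gjb6 cells over other kept cells of the same sex, in cells with a Y-linked UMI and no Xist (horizontal) and with Xist and no Y-linked UMI (vertical), for the 25 genes with the largest folds, 8 of them named. Bars are exact 95% intervals and the dashed line marks equal folds; all points lie in the quadrants of equal sign, with Skap2 at 2.90 and 3.42.

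Most tested S phase and G2M genes were not called, and those that were called were all lower in the Gjb2/Gjb6 cells. Of 37 tested S phase genes, 0 were called higher and 1 lower than in all other cells, and none were called against the Cxcl14 comparison cells. Of 47 tested G2M genes, 0 were called higher and 6 lower than in all other cells (4.97% of all tested genes were called lower), with a median of -0.17, and against the Cxcl14 comparison cells 2 of 46 were lower, close to the 4.68% of all tested genes, with a median of -0.09. Cdkn1a, the p21 inhibitor gene, was at 14.9 CPM against 61.2 in the Cxcl14 comparison cells and 50.3 in all other cells, with a log2 fold of -2.04 in the first case, while Cdkn1c, the p57 inhibitor gene, was at 579, 526 and 389.

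Immediate-early genes, which tissue dissociation is known to induce, were partly higher in the Gjb2/Gjb6 cells. Of 11 tested stress genes, 4 were called higher and 0 lower than in all other cells, and 4 higher and 1 lower than in the Cxcl14 comparison cells. Their part in the other results was not tested. Fos was at 470 CPM (456 to 484) against 331 (323 to 340) and 273 (269 to 277), and Atf3 at 78.6 against 33.6 and 44.4, while Egr1 was lower within the aboral epithelium at 77.4 against 113. The summed level of the 14 listed genes was 3157 CPM, against 2892 and 2924, and its most abundant gene was Hsp90aa1. Folds were also taken in cells without a UMI of Atf3, Fos, Fosb, Ier3 or Nr4a1, of which 128 were Gjb2/Gjb6 cells. The log2 folds of Skap2, Lmx1b and Dcn against the Cxcl14 comparison cells were then 4.22, 3.06 and 2.92. In all cells they were 3.33, 2.17 and 2.36. Choosing cells by absent UMIs can favour shallow cells, in which a limit of 3 connexin UMIs is stricter, and their depth was not compared. This alternative was chosen after seeing the data.

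Outside the mesenchyme list, the markers of other cell types in this paragraph were near 0. Of 15 mesenchyme genes 2 were tested, Vcan and Col5a1, and 0 called in either comparison. The list summed to 680 CPM, against 673 and 663, of which Vcan made up 584. The mesenchyme genes Prrx1, Twist1, Pdgfra and Lum were each below 1 CPM and Col1a1 at 0.894 CPM in the Gjb2/Gjb6 cells. All 5 muscle genes had no UMI in them, which allows up to 0.335 CPM a gene (3 counts). The 7 haemoglobin genes of the erythroid list had no UMI in any E12.0 group, so their 0 says nothing about erythroid RNA in these cells. The 6 endothelial genes summed to 1.79 CPM, led by Pecam1, and the 6 immune genes to 0.335 CPM, led by Csf1r. The 6 Merkel cell and sensory neuron genes summed to 2.12 CPM, led by Tubb3.

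Of the neural crest, glia and melanoblast list, Kit was the gene tested and was lower in both comparisons (15.3 CPM against 34.5 and 29.8), with 2 of the 7 genes at 0 and a summed level of 22.3 CPM. Ednrb, the receptor gene for the Edn3 ligand, was at 1.34 CPM and Ednra at 0 of 8949139 UMIs, which allows up to 0.335 CPM (3 counts). Of the periderm and suprabasal genes outside the rule, 0 of 3 tested were called higher and Sfn was at 135 CPM against 178 and 175, but the rule itself kept periderm cells out of the Gjb2/Gjb6 cells and not out of the comparison groups. Epcam and Trp63, general epithelial genes, were at 388 and 296 CPM and were not called.

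Tested genes of the dental and posterior epithelium were low. All 6 tested dental genes were called lower than in all other cells and 3 of 3 lower than in the Cxcl14 comparison cells, among them Pitx1 at 73.1 CPM against 243 and 333. Not every dental gene went this way. Irx2, also on the dental list, was not tested in either comparison and stood above its level in the Cxcl14 comparison cells. Of the genes listed for the posterior epithelium, Sox2 was lower in the first comparison and Nkx2-3 in both. Nkx2-3 is placed by the study in the oral epithelium and was the only gene of this list tested against the Cxcl14 comparison cells. Genes of other anterior zones were also mostly lower, with 9 of 12 tested called lower than in the Cxcl14 comparison cells and 1 higher, including the bicarbonate transporter gene Slc4a4 (23.0 against 73.0 CPM), the relaxin receptor gene Rxfp1 (23.7 against 71.4) and the homeobox gene Tlx1 (20.6 against 68.1). The study chose these zone markers on the same cells, so their directions are not independent evidence.

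At E9.5 the rule found few cells. Of 12744 kept cells, 29 met it (0.228%), and their Gjb2 level of 256 CPM came with 10.2 CPM of Gjb6. Those 29 cells had no UMI of Cxcl14, Dcn or Lgr6, which allows up to 7.67 CPM a gene (3 counts), and 1 of Lmx1b. In the 4816 E9.5 cells with an Epcam UMI, Gjb2 was at 7.26 CPM, Gjb6 at 0.662, Lmx1b at 0.677, Cxcl14 at 1.43 and Dcn at 4.16. Edn3 (18.9 CPM) and Slc2a3 (428 CPM) were present there at levels near or above those of the E12.0 Gjb2/Gjb6 cells. Stage, dissection, sort and library cannot be told apart in these values.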

How the data were processed

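For both libraries the authors deposited unnormalized UMI counts, 1 matrix of genes by cell barcodes each, from 10x Genomics single cell libraries. The submitters' processing notes name Cell Ranger 2.0.0 and the builds GRCm38 and mm10, whereas the matrix headers give software versions 3.1.0 (E12.0) and 6.1.2 (E9.5). Gene positions are from GENCODE on GRCm38 and promoter sequences from RefSeq.

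Cells were filtered on genes and mitochondrial UMIs and chosen by raw UMIs of the rule's genes. Counts were summed per group with numpy 2.4.6, pandas 2.3.3 and scipy 1.17.1 under Python 3.11.15. Doublets were called with Scrublet in scanpy 1.11.5 (scores above 0.180) and kept. Where a gene had no UMI in a group, its ratio was taken against 3 counts. The calculation was tested on simulated data. Thinning used a seed of 1. Figures were drawn with matplotlib 3.10.9.

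The members and gene lists were chosen with earlier results of these data known. Genes named were those of the lists and the 15 higher and 10 lower with the largest fold in each comparison, without rule, Xist, Y-linked, mitochondrial and unnamed genes. The Hedgehog genes, Irx3, Irx5, Dlx1, Ednrb, Ednra and C130021I20Rik were added after their values were seen. Alternatives changed the rule, the filters, the scaling, the sex and the cutoffs. A few genes of the lists, including 1 used to choose the dental group, are not reported here.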

Additional observations from a re-analysis of the deposited data

How the results depend on the processing

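The counts of called genes depended on the cutoffs. Against all other cells (338 higher and 322 lower) and against the Cxcl14 comparison cells (277 and 304), a fold of at least 2 left 75 and 77, and 42 and 63. A UMI in at least 25% of cells left 221 and 172, and 172 and 183, a UMI in at least 5% gave 639 and 796, and 560 and 662, and asking the lower bound of the interval to reach 1.3 left 220 and 181, and 148 and 162. At most 5% mitochondrial UMIs, which left 128 Gjb2/Gjb6 cells, gave 780 and 636, and 762 and 639, and cells without UMIs of 5 immediate-early genes, an alternative chosen after seeing the data that also left 128, gave 736 and 790, and 697 and 791. Female cells alone gave 485 lower against all other cells, and 446 higher and 476 lower against the Cxcl14 comparison cells, and cells with 5000 to 9000 UMIs gave 494 lower against all other cells. The cause was not tested. All other counts stayed within 1.5 times, under these and the other settings. Of the 338 higher and 322 lower genes, 326 and 307 were called without doublets, and 223 and 184 in cells thinned to 4000 UMIs, where the rule left 622 instead of 1179 Gjb2/Gjb6 cells and fewer genes were tested (4669 instead of 6482). Against the Cxcl14 comparison cells, thinning kept 165 of 277 and 163 of 304. Folds of called genes reversed for Id4 (0.18) and Rnf43 (-0.015) against the Cxcl14 comparison cells, both at 5% mitochondrial UMIs. No fold of a called gene reversed against all other cells. Some genes that were not called changed sign there, such as Msx1, from -0.034 to 0.20 with at least 2 connexin UMIs. Against all other cells, 1185 of 4981 folds of named genes, called or not, moved by more than their counting error. Against the Cxcl14 comparison cells 964 of 5740 did. No paired analysis was possible because each stage had 1 library. With 1 pooled litter, the precision is that of UMI counts, and differences between embryos were not measured.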
